A study of Homo sapiens with 12 samples.

Results

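Interferon-stimulated effector genes are the genes whose products carry out the antiviral state of a cell. The set described here holds 52 named genes out of 57152 rows with a value in the expression table. Members were taken by gene symbol alone, and all 52 symbols were present. The list leaves out nucleic acid sensors and the transcription factors of the IRF and STAT families, which are described beside it. Of the 52 members, 41 had a mean of at least 1 TPM (a transcript level scaled by gene length and by library) over the 12 libraries and were tested, among 13968 genes in all.

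The libraries came from A549, a line of human lung adenocarcinoma cells, and from the LB line, whose listed source in the labels is A549. The 4 groups of 3 libraries were A549 with vehicle (A549 DMSO), LB with vehicle (LB DMSO), LB with amiodarone, and LB with both amiodarone and HPbCD, which is hydroxypropyl-beta-cyclodextrin. The antiarrhythmic drug amiodarone, a cationic amphiphile that gathers in lysosomes, was present at 10 µM for 24 h, HPbCD, a ring-shaped sugar that carries cholesterol, at 10 mg/ml from seeding and so from 24 h before the drug, and the vehicle was 0.1% DMSO. HPbCD alone and A549 with amiodarone were not analysed here, so HPbCD was measured only on top of the drug. Nothing in the labels says that the 3 libraries of a group came from separate cultures, so p-values measure the spread between these libraries, which may be technical. No source used here gives how LB cells were made or whether they are 1 clone.

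Interferons are secreted proteins that bind receptors on the cell surface. The receptors' JAK kinases phosphorylate factors of the STAT family, which join IRF9 and bind a short promoter sequence, the interferon-stimulated response element (ISRE). Many of the genes switched on in this way also have a low tonic level in unstimulated epithelial cells, and IRF3, IRF1 and IRF7 can bind the same element. A second element, the gamma-activated sequence (GAS), is known from genes that respond to interferon gamma.

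Most members with a promoter window held ISRE letters. The symbols were chosen as interferon-stimulated genes, many of which are switched on through this element, so their share is not independent of the choice. RefSeq promoter windows (GRCh38.p14, 250 bases before to 50 after each start) were found for 44 of the 52 members. The ISRE letters searched were GAAA, any 2 bases and GAAA, on either strand. They stood in windows of 32 of these 44 members (72.7%), against 1195 of 27305 genes (4.38%). The GAS letters TTCNNNGAA, which read alike on both strands, stood in windows of 11 of the 44 (25%), against 9.38% of genes. Both sets of letters stood in 8 members, BST2, DDX60, EPSTI1, IFI27, IFITM1, MX1, PARP14 and PLSCR1. In BST2, EPSTI1, IFI27, IFITM1 and MX1 a GAS match shares bases with an ISRE match, so the GAS and ISRE counts are not independent. A match is a description of the letters and not a binding site, and windows without a match can hold other forms of the element.

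Stretches of 30 bases are shown for 8 members, those tested members with a complete ISRE match upstream of the start that had the largest difference between LB cells with amiodarone plus HPbCD and LB cells with amiodarone. They are written 5′ to 3′ on the gene's strand, and capitals mark the ISRE letters, which read TTTC, any 2 bases and TTTC where the match is on the opposite strand. The windows are from RefSeq, build GRCh38.p14.
IFI27: gcagTTTCGGTTTCctgGAAAATGAAAcct
MX1: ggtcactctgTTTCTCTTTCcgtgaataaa
ISG15: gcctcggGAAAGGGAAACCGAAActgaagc
IFI6: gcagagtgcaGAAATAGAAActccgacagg
IFIT1: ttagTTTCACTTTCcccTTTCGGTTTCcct
IFITM1: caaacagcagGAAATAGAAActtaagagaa
IFI44: gggcacactgagTTTCAGTTTCctttctct
IFIT3: gttccatcagTTTCACTTTCctttcccctt

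The IFI27 stretch is at chr14:94110624-94110653 on the plus strand, with a match on each strand, between bases -108 and -86 from the start. The MX1 stretch is at chr21:41431844-41431873 on the plus strand, where the match starts 196 bases before the most downstream of its RefSeq starts and lies in an annotated MX1 exon. The ISG15 stretch, at chr1:1013377-1013406 on the plus strand, holds overlapping matches from -113 to -98. The IFI6 stretch is at chr1:27672266-27672295 on the minus strand, with the match from -93 to -84. The IFIT1 stretch is at chr10:89392503-89392532 on the plus strand and holds a pair of matches between -116 and -94. The IFITM1 stretch, at chr11:313990-314019 on the plus strand, has its match from -40 to -31, inside an annotated IFITM1 exon. The IFI44 stretch is at chr1:78649759-78649788 on the plus strand, with the match from -18 to -9, and the IFIT3 stretch is at chr10:89332468-89332497 on the plus strand, with the match from -51 to -42 in an annotated IFIT3 exon. The IFI27, ISG15 and IFIT1 stretches thus hold more than 1 match, and the other 5 hold 1.

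Most of the members were higher when HPbCD was added to amiodarone. Of the 41 tested, 37 were higher in LB cells with amiodarone plus HPbCD than in LB cells with amiodarone (90.2%), against 2.71% of all genes tested. The 37 include OAS2 and BST2, which reached a mean of 1 TPM only with HPbCD and so entered the test through that group. By limma with Benjamini-Hochberg adjustment 0 members were lower, against 1.36% of all genes. At an unadjusted p under 0.05 the members lower were also 0. The members include IFI27, MX1, ISG15 and IFI6, which ranked 3, 4, 6 and 7 among the 13968 genes by the size of the rise. Of the tested members, 21 were at least 2-fold higher on the log2(TPM + 1) scale. The median log2 difference was 1.04 over the tested members and 0.85 over all 52, where the median of all genes tested was -0.01. The count of 37 fell to 24 when both libraries numbered 1 of the amiodarone and the amiodarone plus HPbCD groups were left out, a setting chosen after the data were seen that leaves 2 libraries in each of these groups.

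**Figure D1:**
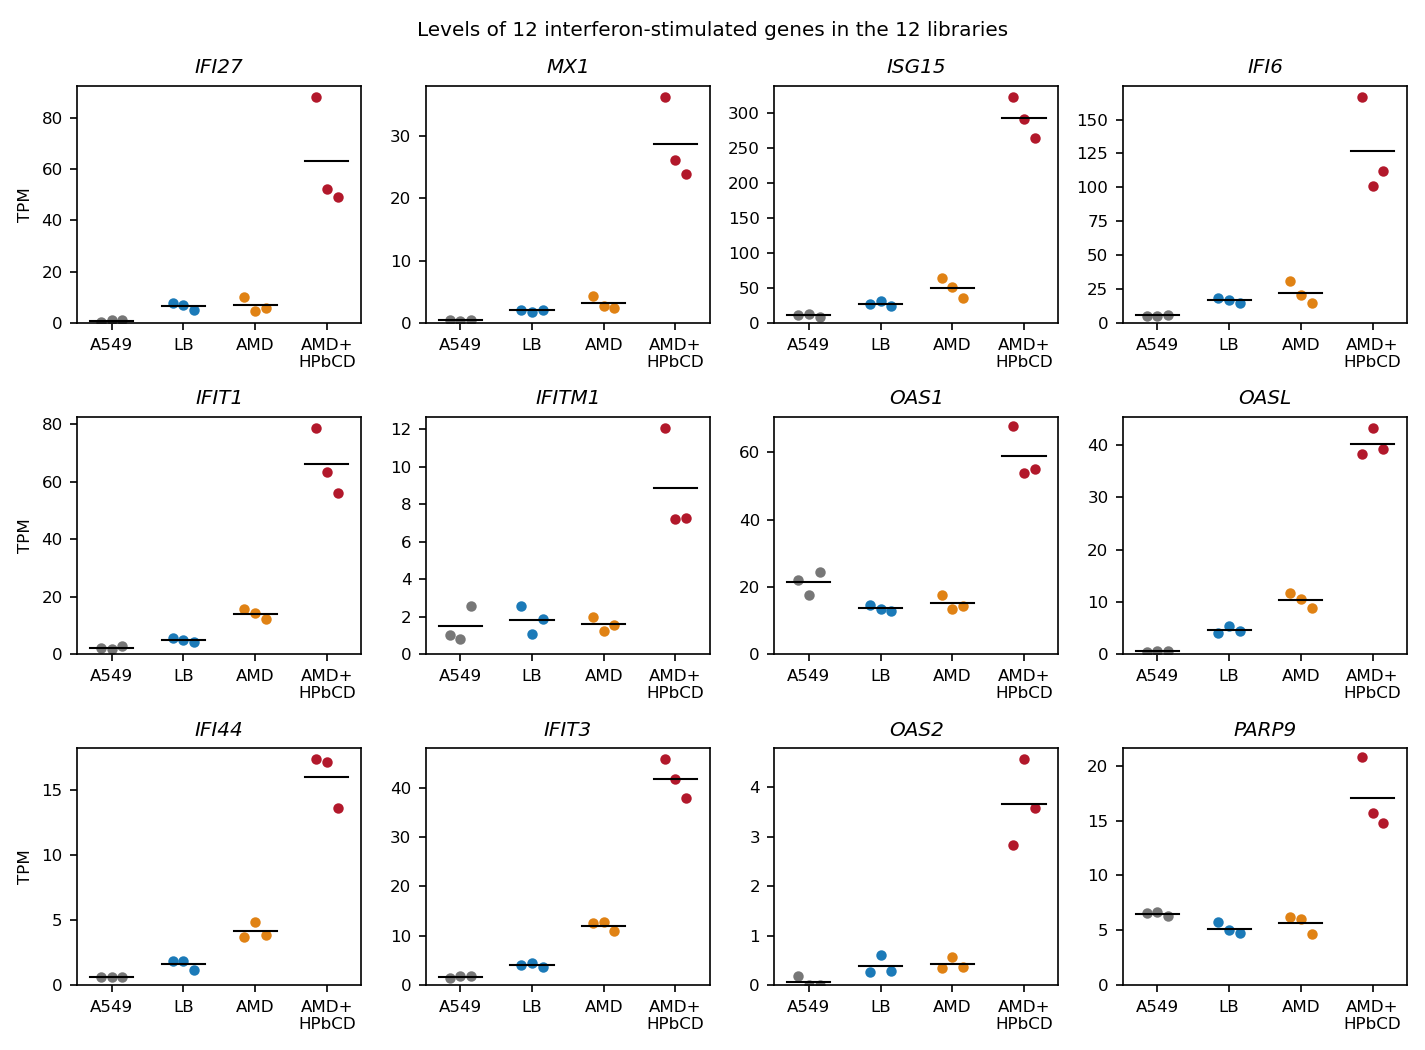
Level in TPM (linear axis from 0) of the 12 tested members with the largest HPbCD difference, in each of the 12 libraries (points) with group means (bars). A549 and LB are the DMSO groups, and AMD is LB cells with amiodarone. In each panel the 3 amiodarone plus HPbCD libraries lie above the 9 others.

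The IFIT proteins bind viral RNA that lacks the cap marks of host messengers. IFIT1 was listed at 2.14, 1.75 and 2.81 TPM in the A549 libraries, 5.62, 4.91 and 4.36 in LB DMSO, 15.6, 14.3 and 12.2 with amiodarone, and 78.7, 63.6 and 56.2 with amiodarone plus HPbCD. The 4 groups of IFIT1 values did not overlap and rose in the order given. The HPbCD step of IFIT1 was 2.15 on the log2(TPM + 1) scale (SE 0.15, limma adjusted p = 8.8e-06). IFIT3, which stabilises IFIT1, stood at 12.5, 12.7 and 10.9 TPM with amiodarone and 45.9, 41.8 and 37.9 with HPbCD added. The IFIT3 groups lay apart, with a log2 difference of 1.71 (SE 0.11, limma adjusted p = 6.33e-06). IFIT2, which binds AU-rich RNA, had 10.3, 11.1 and 7.84 TPM with amiodarone and 27.4, 30 and 24.8 with HPbCD, a log2 difference of 1.41. IFIT5 had the smallest difference of the 4, from 7.48 ± 0.44 to 10.8 ± 0.57 TPM (SD, n = 3), and its call was lost without both libraries numbered 1 (limma adjusted p = 0.113). All 4 IFIT genes lie on chromosome 10.

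The OAS enzymes make 2′-5′ oligoadenylates when they meet double-stranded RNA, and these activate RNase L. OAS1 was listed at 22.0, 17.7 and 24.3 TPM in A549, 14.6, 13.4 and 12.8 in LB DMSO, 17.5, 13.5 and 14.3 with amiodarone and 67.8, 53.7 and 54.9 with amiodarone plus HPbCD. The HPbCD libraries of OAS1 were far above the others, while A549 was above LB DMSO. The HPbCD step of OAS1 was 1.89 (SE 0.13, limma adjusted p = 7.15e-06). OASL, a relative of the OAS enzymes that lacks their activity, had 11.7, 10.6 and 8.76 TPM with amiodarone and 38.2, 43.3 and 39.3 with HPbCD, a log2 difference of 1.87 (SE 0.12, limma adjusted p = 6.83e-06). OAS3 went from 15.5 ± 2.84 to 40.5 ± 11.6 TPM (SD, n = 3), with 53.7 TPM in the first HPbCD library and 35.6 and 32.2 in the others. OAS2 reached a mean of 1 TPM in the HPbCD group alone, at 2.83, 4.56 and 3.57 TPM, and was at most 0.61 TPM in the 9 other libraries. It entered the test through that group, so its call was fixed in part by the filter, and the same holds for BST2.

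The other effectors that act on RNA had differences of at most 1.39. Of the 10 OAS and RNA-directed members, 9 were higher after HPbCD. DDX60, a helicase that promotes RNA sensing, stood at 2.87, 3.12 and 2.61 TPM with amiodarone and 8.98, 9.55 and 8.79 with HPbCD, a log2 difference of 1.39 (SE 0.12, limma adjusted p = 3.61e-05). HELZ2, a helicase and coactivator, had a difference of 1.28. EIF2AK2, the kinase PKR that stops translation on double-stranded RNA, had 0.68, and ZC3HAV1, the zinc finger protein that binds CpG-rich viral RNA, had 0.60. The exonuclease ISG20 went from 40.8 ± 3.23 to 56.6 ± 1.31 TPM (SD, n = 3, limma adjusted p = 0.0383). The ISG20 call was lost when any 1 library of the amiodarone or the amiodarone plus HPbCD group, or LB DMSO library 1 or 3, was left out (limma adjusted p 0.0536 to 0.144). The EIF2AK2 call was lost without both libraries numbered 1 (limma adjusted p = 0.112). DDX60L did not pass the test, at 0.58 (limma adjusted p = 0.0567), although its libraries did not overlap; without LB amiodarone library 3 its limma adjusted p was 0.0468, and without A549 library 2 it was 0.0387.

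MX1, a dynamin-like GTPase that blocks viral nucleocapsids, was among the most changed members. It stood at 0.50, 0.34 and 0.44 TPM in A549, 2.16, 1.8 and 2.12 in LB DMSO, 4.27, 2.76 and 2.42 with amiodarone and 36.2, 26.1 and 23.9 with amiodarone plus HPbCD. The groups did not overlap, and the HPbCD libraries were far above any other. The log2 difference of the HPbCD step of MX1 was 2.84 (SE 0.18, limma adjusted p = 6.33e-06), and the ratio of mean TPM was 9.12. MX2, its neighbour on chromosome 21, was under the level filter, at 0.73, 0.75 and 0.37 TPM with amiodarone and 2.66, 2.64 and 2.12 with HPbCD. The guanylate-binding proteins, GTPases that act on membranes of pathogens, were low throughout. GBP1 was at or below 0.59 TPM in all 12 libraries, and GBP2 at or below 1.45 TPM with its highest values in A549.

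ISG15 is a ubiquitin-like protein that is secreted or joined to other proteins. It was listed at 12.1, 12.8 and 8.86 TPM in A549, 26.8, 31.9 and 24.5 in LB DMSO, 63.7, 50.7 and 35.3 with amiodarone, and 323, 291 and 263 with amiodarone plus HPbCD. No group of ISG15 values overlapped another, and the amiodarone libraries were the most spread for their level. The HPbCD step of ISG15 was 2.56 (SE 0.19, limma adjusted p = 1.25e-05), a ratio of mean TPM of 5.86. Its conjugation partners had smaller differences, the E2 enzyme UBE2L6 of 0.54, the E3 ligase HERC5 of 1.07 and its relative HERC6 of 0.98. The protease USP18, which removes ISG15 and damps receptor signalling, changed by 0.70, and TRIM25 did not pass the test, at 0.40 (limma adjusted p = 0.0603; 0.00769 without A549 library 2 and 0.0476 without A549 library 3). In this group 5 of 6 members were higher after HPbCD.

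Calls of 3 of these partners rested on few libraries. The UBE2L6 call was lost without amiodarone library 1 or 3 or amiodarone plus HPbCD library 1 or 2 (limma adjusted p 0.0574 to 0.113). The HERC6 call was lost without any 1 amiodarone library, or without amiodarone plus HPbCD library 1 or 2 (limma adjusted p 0.0746 to 0.119), and its HPbCD values were 12.4, 8.36 and 6.60 TPM. The UBE2L6 and HERC6 calls were also lost with all libraries kept but no filter (limma adjusted p = 0.0756 and 0.0936). The USP18 call was lost only without both libraries numbered 1 (limma adjusted p = 0.0862). Of the 100-base windows in USP18 transcripts, 15.4% also occur in USP41, so reads of these genes cannot be fully told apart.

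The IFITM proteins hinder the fusion of viral envelopes with cell membranes, and their 3 genes stood at unlike levels. IFITM1 was at 1.96, 1.22 and 1.55 TPM with amiodarone and 12.1, 7.21 and 7.25 with HPbCD, a log2 difference of 1.91 (SE 0.28, limma adjusted p = 0.00233). IFITM3 was already at 208, 189 and 177 TPM with amiodarone and was at 292, 258 and 246 with HPbCD, a difference of 0.47. The IFITM3 groups did not overlap, but its call was lost without amiodarone library 2 or 3 or amiodarone plus HPbCD library 1 or 2 (limma adjusted p 0.0603 to 0.1). IFITM2 had its highest values in LB DMSO, 125, 121 and 121 TPM, and went from 106, 97.6 and 105 TPM with amiodarone to 112, 109 and 111 with HPbCD, which did not pass the test (limma adjusted p = 0.634). Of the 100-base windows in their transcripts, 27.5% of those of IFITM1, 18.2% of IFITM2 and 3.13% of IFITM3 occur in another gene, so the split of reads between IFITM1 and IFITM2 is uncertain.

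Of the other membrane and lipid-linked members, PLSCR1 and BST2 were tested and were higher after HPbCD. PLSCR1, a scramblase-family protein, stood at 59.2, 56.2 and 62.2 TPM in A549, 38.1, 35.6 and 41.7 in LB DMSO, 45.3, 44.1 and 43.8 with amiodarone and 110, 84.8 and 89.0 with amiodarone plus HPbCD. Its A549 libraries were above LB DMSO, and its HPbCD libraries were the highest. The HPbCD step of PLSCR1 was 1.06 (SE 0.09, limma adjusted p = 3.21e-05). BST2, the tether that holds budding virions, was at 3.45, 2.10 and 2.64 TPM with HPbCD and at or below 0.75 TPM elsewhere, and its limma adjusted p was 0.00755, or 0.116 with a pseudocount of 0.1 and 0.12 without both libraries numbered 1. RSAD2, which makes the chain terminator ddhCTP, and its neighbour CMPK2 were under the level filter, with means of 1.11 and 2.02 TPM after HPbCD.

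The IFI group held the member with the largest HPbCD difference. IFI27, a small mitochondrial and nuclear membrane protein, was at 0.37, 1.33 and 1.04 TPM in A549, 7.70, 6.83 and 4.95 in LB DMSO, 9.97, 4.86 and 5.89 with amiodarone and 88.0, 52.1 and 49.2 with amiodarone plus HPbCD. The LB DMSO and amiodarone values of IFI27 overlapped, and the first HPbCD library was well above the other two. The HPbCD step of IFI27 was 3.02 (SE 0.28, limma adjusted p = 7.19e-05). IFI6, a mitochondrial protein that limits apoptosis, was at 18.4, 17.1 and 14.7 TPM in LB DMSO, 31.1, 20.6 and 14.95 with amiodarone and 167, 101 and 112 with HPbCD. IFI6 again had its highest HPbCD value in the first library, with a step of 2.48 (SE 0.225, limma adjusted p = 6.06e-05). IFI44, a cytoplasmic GTP-binding protein, was at 3.70, 4.81 and 3.86 TPM with amiodarone and 17.4, 17.1 and 13.6 with HPbCD, a step of 1.73 (SE 0.14, limma adjusted p = 3.21e-05). IFI35 changed by 0.80. IFI44L was listed at 0 in the A549 libraries and at 2.91, 2.10 and 2.14 TPM after HPbCD. IFI16, a DNA-binding protein, was at 0.78 to 1.22 TPM after HPbCD and overlapped the amiodarone group.

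The 4 PARP and DTX3L members were all higher after HPbCD. In the line comparison all 4 differences were below 0, with those of PARP12 and PARP14 past the test. PARP9 and the E3 ligase DTX3L form a complex, and their genes are divergent neighbours on chromosome 3 with overlapping promoter windows, in which 1 ISRE match is shared and counts for both genes. PARP9 was at 6.25, 5.98 and 4.65 TPM with amiodarone and 20.8, 15.7 and 14.8 with HPbCD (log2 difference 1.44, SE 0.13, limma adjusted p = 7.19e-05). DTX3L was at 4.58, 3.99 and 5.08 TPM and then at 11.6, 8.90 and 11.8 (log2 difference 1.08). PARP12 and PARP14, mono-ADP-ribosyltransferases, changed by 0.89 and 0.68, and the PARP14 call was lost without both libraries numbered 1 (limma adjusted p = 0.119).

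Of the 4 TRIM and nuclear body members, 3 were higher after HPbCD. TRIM14, a mitochondrial adaptor, changed by 0.67, TRIM21, an intracellular antibody receptor, by 0.51 and the nuclear body protein SP100 by 0.60. Each of these 3 calls was lost without both libraries numbered 1, at limma adjusted p = 0.133, 0.0579 and 0.0653. TRIM22 was at 1.26, 2.07 and 1.14 TPM with amiodarone and 4.15, 3.79 and 1.89 with HPbCD, and it did not pass the test (limma adjusted p = 0.0987), though it did without amiodarone plus HPbCD library 3 (limma adjusted p = 0.0291). Of the 7 remaining members, the 3 tested were all higher. They were SAMD9, a growth-restricting antiviral factor (1.04), LGALS3BP, a secreted glycoprotein (0.50), and the aminopeptidase LAP3 (0.46, lost without both libraries numbered 1 at limma adjusted p = 0.104). SAMD9L, XAF1 and EPSTI1 were under the level filter with means of 1.3, 1.18 and 0.84 TPM after HPbCD, and RTP4 was listed at or below 0.14 TPM everywhere.

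With amiodarone alone 8 of the 41 tested members were higher than in LB DMSO (19.5%), against 4.9% of all genes tested, and 8.62% of all genes passed in either direction. The 0 lower members compare with 3.72% of all genes, and 1 member, IFITM2, was lower at an unadjusted p under 0.05. The genes were IFIT1, IFIT2, IFIT3, OASL, ISG15, HERC5, IFI44 and PARP14. Of the others, 33 did not pass the test, among them IFI27, IFI6 and OAS1. The median log2 difference of the tested members was 0.17, and that of all genes tested was -0.003.

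Among the members, IFIT2, IFIT3 and IFIT1 had the largest differences, and IFIT5 did not pass the test (0.225, limma adjusted p = 0.108). IFIT2 was at 3.04, 3.25 and 2.51 TPM in LB DMSO and 10.3, 11.1 and 7.84 with amiodarone, a log2 difference of 1.44 (SE 0.13, limma adjusted p = 3.07e-05) and a ratio of mean TPM of 3.33. IFIT3 went from 4.08, 4.44 and 3.60 to 12.5, 12.7 and 10.9 TPM, a difference of 1.37 (SE 0.11, limma adjusted p = 6.35e-06). The libraries of both genes lay apart. IFIT1 had a difference of 1.33, OASL of 1.01 and IFI44 of 0.97. IFITM2 had a difference of -0.24 (limma adjusted p = 0.138), and in fits of only the groups compared or without A549 library 2 it passed as lower (limma adjusted p = 0.0245 and 0.0068).

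Calls of the other 3 genes depended on single libraries. ISG15, with a difference of 0.79 (limma adjusted p = 0.0223), did not pass without LB DMSO library 1 or 3 or amiodarone library 1 or 2 (limma adjusted p 0.0723 to 0.0897). HERC5, with 0.62, did not pass without LB DMSO library 3 (limma adjusted p = 0.0509). PARP14, with 0.49, did not pass without any 1 LB DMSO library or amiodarone library 3 (limma adjusted p 0.0542 to 0.0985). With all libraries kept but no filter, ISG15 and PARP14 did not pass either (limma adjusted p = 0.0741 and 0.0629). ISG15 also did not pass in a fit of only the groups compared (limma adjusted p = 0.061). The count of 8 was 5 without LB DMSO library 3.

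The line comparison set LB DMSO against A549 DMSO. Of the 41 tested members, 15 were higher in LB (36.6%) and 7 were lower (17.1%), where 14.2% and 18.2% of all genes tested were higher and lower and 32.4% passed in either direction. OASL changed most among the RNA-directed members, from 0.40, 0.62 and 0.56 TPM in A549 to 4.07, 5.40 and 4.40 in LB, a log2 difference of 1.88 (SE 0.12, limma adjusted p = 2.27e-07). IFI27 differed by 1.99, IFI6 by 1.43, IFITM3 by 1.26, ISG15 by 1.24, IFIT2 by 1.10, MX1 by 1.08, IFIT3 by 0.93, IFIT1 by 0.89, IFI35 by 0.72, IFI44 by 0.69 and IFITM2 by 0.42. The exonuclease ISG20 was at 17.6, 12.6 and 17.8 TPM in A549 and 46.8, 40.6 and 45.8 in LB, a difference of 1.43 (SE 0.11, limma adjusted p = 1.23e-06). The A549 and LB DMSO libraries did not overlap for any of these genes. UBE2L6 (0.38) and HERC5 (0.40) also passed, and UBE2L6 was lost without A549 library 1 or 3 or LB DMSO library 1 or 2 (limma adjusted p 0.0541 to 0.102), HERC5 without A549 library 2 or LB DMSO library 1 or 2 (limma adjusted p 0.0714 to 0.108).

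The 7 members lower in LB DMSO were OAS1 (-0.61), DDX60L (-1.06), PLSCR1 (-0.61), PARP12 (-0.36), PARP14 (-0.67), SP100 (-0.29) and LGALS3BP (-0.27). Their share of the tested members, 17.1%, was near the 18.2% of all genes tested that were lower. DDX60L was at 8.37, 10.5 and 7.73 TPM in A549 and at 3.21, 4.18 and 3.77 in LB DMSO, groups that lay apart. PARP12 was lost in 9 of the 12 fits that left out 1 library (all but those without A549 library 3 and amiodarone library 1 or 3; limma adjusted p 0.0525 to 0.151), and under median-of-ratios scaling (limma adjusted p = 0.0736). SP100 was lost without any 1 A549 library or LB DMSO library 1 or 3 (limma adjusted p 0.0574 to 0.111) and under quantile normalization (limma adjusted p = 0.0532). The median difference over the tested members was 0.13, or 0.03 with a filter at 5 TPM, where that of all genes tested was -0.04.

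The 3 steps, line, amiodarone and HPbCD, are shown side by side for each member, with no test across them because neighbouring steps share a group. The HPbCD step was the largest of the 3 in size for 41 of 52 members and the line step for 8 (OASL, ISG20, DDX60L, GBP1, GBP2, IFITM2, IFITM3 and SAMD9L). The same split over all genes tested was not computed, so how far it is particular to the members is not known. The counts include members below the level filter, such as IFI44L, RSAD2, XAF1 and EPSTI1, whose steps rest on values near 0 and on the pseudocount. The amiodarone step was the largest for IFIT2, IFI16 and RTP4. By the ratio of mean TPM, which has no pseudocount and was added after the values were seen, the line step was instead the largest for IFIT2, MX2 and PARP14, and the largest step was the same in the rest of the 48 members with a mean above 0 in every group. For IFIT2 these ratios were 3.53, 3.33 and 2.81 in the order line, amiodarone and HPbCD. In 24 members all 3 steps were positive, and the HPbCD step then made up between 35.6% (IFIT2) and 87.4% (IFI44L) of their sum on the log2(TPM + 1) scale, with a median of 62.0%. For IFIT1 the share was 49.2%, for ISG15 55.7% and for MX1 65.2%. For OAS1 and PLSCR1 the line and HPbCD steps had opposite signs.

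**Figure D2:**
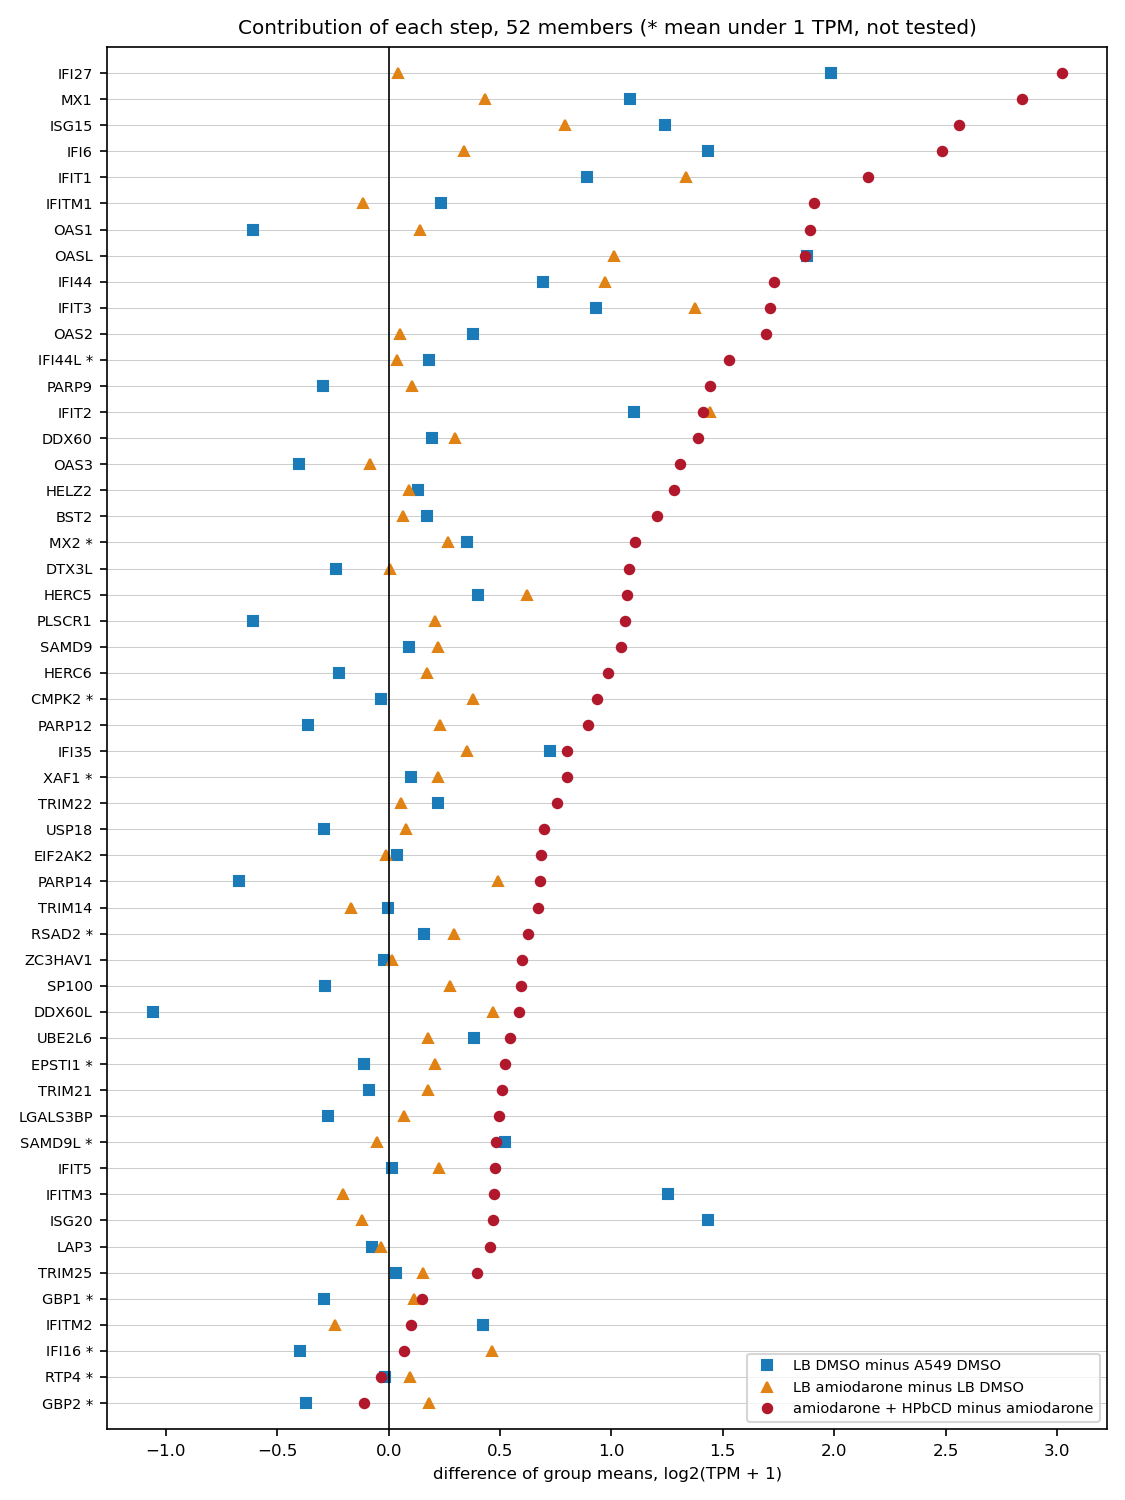
Difference of group means on the log2(TPM + 1) scale (horizontal axis) for each of the 52 members, sorted by the HPbCD step, with squares for LB DMSO minus A549 DMSO, triangles for amiodarone minus LB DMSO and circles for amiodarone plus HPbCD minus amiodarone. The circles lie farthest from 0 for 41 members, and an asterisk marks the 11 members below the level filter.

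Compared directly with LB DMSO, amiodarone plus HPbCD had 38 of 41 tested members higher (92.7%), against 10.1% of all genes, with 17.9% of all genes past the test in either direction. OAS2 and BST2, which entered the test through the HPbCD group, are among the 38. By limma with Benjamini-Hochberg adjustment 0 members were lower, against 7.81% of all genes, and at an unadjusted p under 0.05 also 0. Of the tested members, 26 were at least 2-fold higher on the log2(TPM + 1) scale. The members included 8 of the 10 largest rises, IFIT1 (3.49), ISG15 (3.35), MX1 (3.28), IFIT3 (3.09), IFI27 (3.06), OASL (2.88), IFIT2 (2.85) and IFI6 (2.82). The 3 that did not pass were ISG20 (0.35, limma adjusted p = 0.053), IFITM3 (0.27, limma adjusted p = 0.0892) and IFITM2 (-0.14, limma adjusted p = 0.334, but 0.0298 in a fit of only the groups compared and 0.0497 without A549 library 2). ISG20 passed without any 1 A549 library (limma adjusted p 0.00528 to 0.0497), and IFITM3 without A549 library 2 (limma adjusted p = 0.0197). TRIM14 was lost without LB DMSO library 1 or amiodarone plus HPbCD library 1 (limma adjusted p = 0.0567 and 0.0615). TRIM22 was lost without LB DMSO library 1 or 3 or amiodarone plus HPbCD library 1 or 2 (limma adjusted p 0.0738 to 0.12).

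Over all 4 groups, 47 of 52 members had their highest mean in amiodarone plus HPbCD, the exceptions being DDX60L, GBP1, GBP2, IFITM2 and RTP4. The share of all genes with their highest mean there was not computed. In 44 members all 3 HPbCD libraries were above the 9 others. Of the 41 tested members this was 38, against 5.58% of all genes tested. The 38 again include OAS2 and BST2, which entered the test through the HPbCD group. The median log2 difference of the tested members was 1.17 against LB DMSO, where the median of all genes was -0.02.

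**Figure D3:**
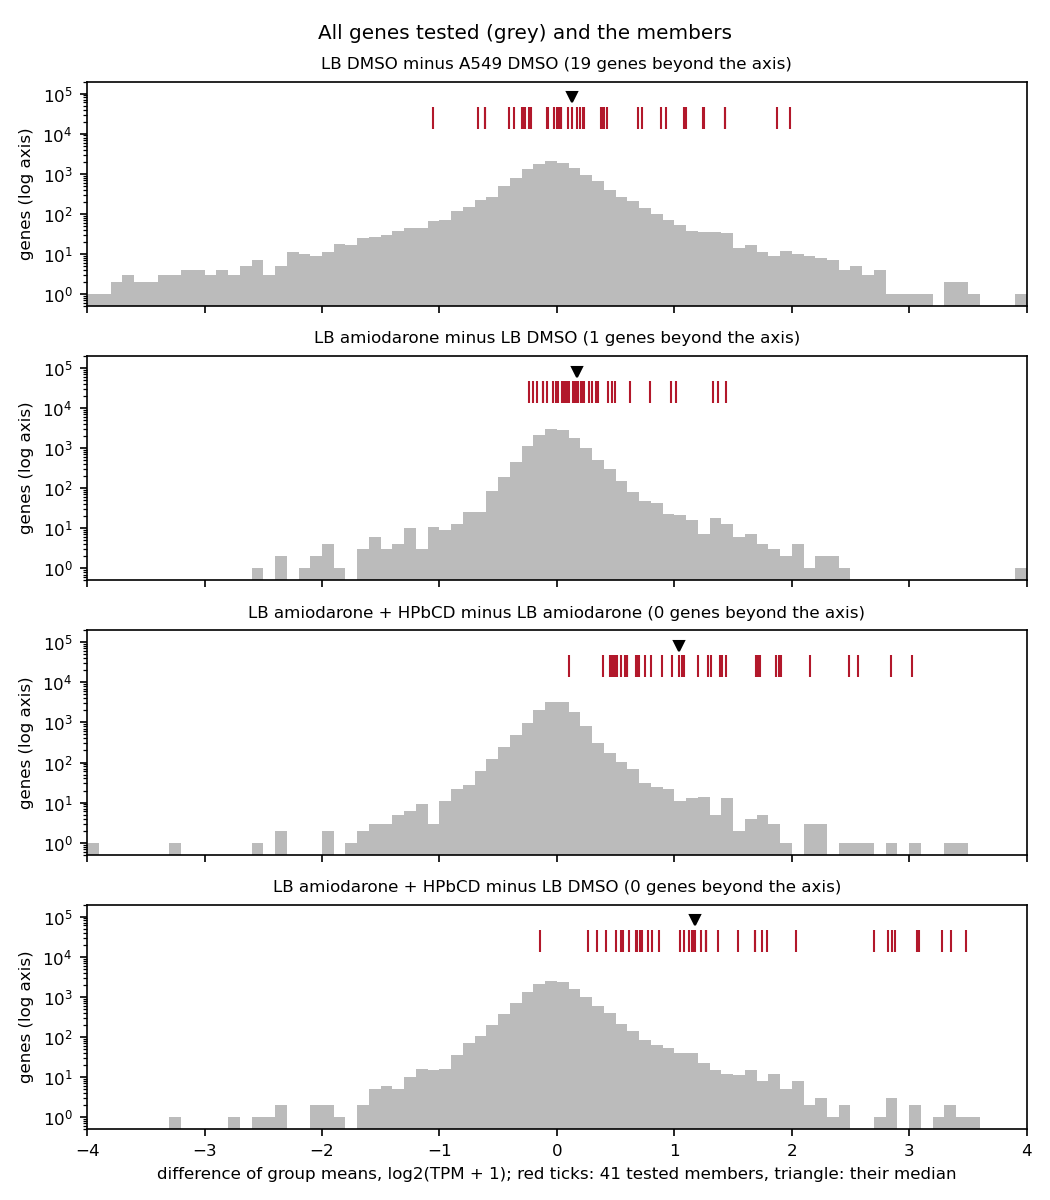
Distribution of the difference of group means on the log2(TPM + 1) scale for the 13968 genes tested (grey, logarithmic count axis) in each comparison, with the 41 tested members as red ticks and their median as a triangle. The horizontal axis ends at 4 in size, with 19 genes beyond it in the line comparison, 1 in the amiodarone comparison and 0 in the others. The ticks reach farthest to the right in the 2 lower panels.

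Replicates did not contribute equally. In the amiodarone plus HPbCD group, library 1 held the highest value for 34 of 52 members, library 2 for 12 and library 3 for 6. Among the 41 tested members these counts were 31, 9 and 1. The same split over all genes tested was not computed, so how far it is particular to the members is not known. The summed TPM of the members was 2385, 2070 and 1946 in these libraries, against 1115, 1050 and 977 with amiodarone, 1014, 973 and 967 in LB DMSO and 810, 791 and 851 in A549. The lowest HPbCD sum was thus above the highest sum in the other groups. The median deviation of the members from their group mean was 0.11, -0.01 and -0.13 on the log2(TPM + 1) scale for the 3 HPbCD libraries, and between -0.06 and 0.06 for the 9 others. IFI27, IFI6, OAS3 and IFITM1 had the first HPbCD library clearly above the other two, whereas for OASL, IFIT2 and OAS2 the second was highest. IFITM2, IFITM3 and LGALS3BP held 4.68 to 12.5%, 9.63 to 22.6% and 12 to 28.3% of the sums, and they led in the 9 libraries without HPbCD. In each of the 3 HPbCD libraries the largest single member was ISG15, at 323, 291 and 263 TPM.

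**Figure D4:**
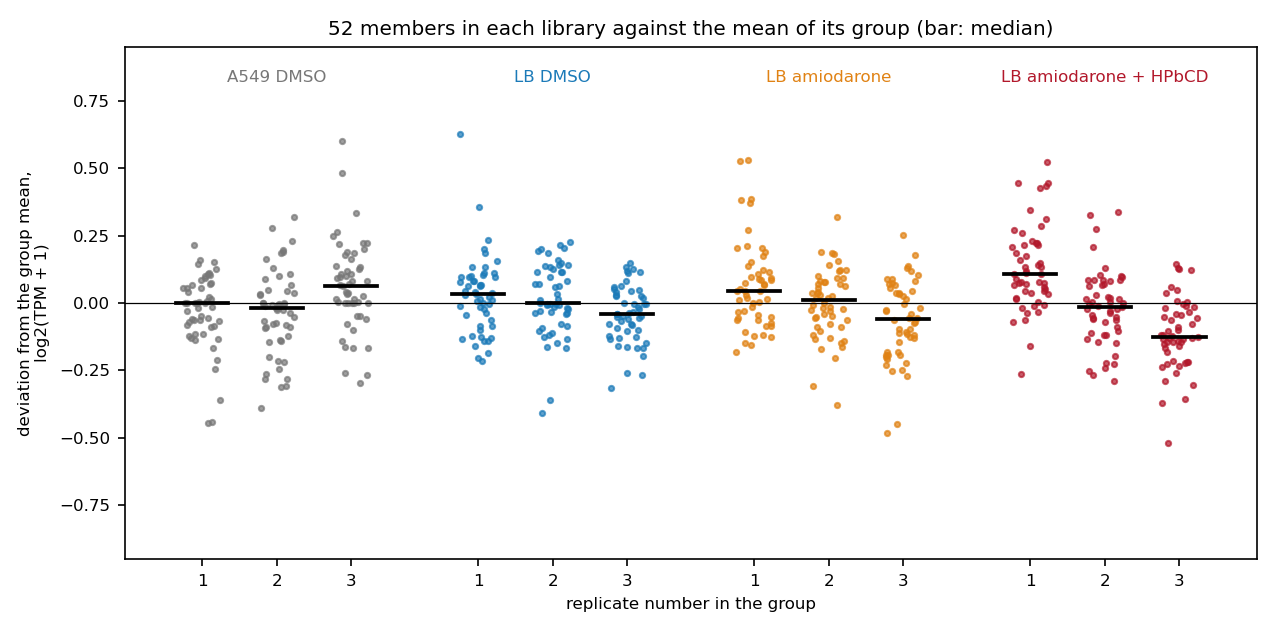
Deviation of each of the 52 members from its group mean on the log2(TPM + 1) scale (vertical axis), by library and group, with the median over the members as a black bar. In the amiodarone plus HPbCD group the medians are 0.11, -0.01 and -0.13 for libraries 1, 2 and 3.

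Where the ISRE letters stood and how the members moved with HPbCD are set side by side. In the 32 members with ISRE letters the median HPbCD difference was 1.05, between -0.03 (RTP4) and 3.02 (IFI27), and 26 of the 27 tested were higher. In the 12 members with a window but without these letters the median was 0.70, between 0.07 (IFI16) and 1.89 (OAS1), and 7 of the 8 tested were higher. The ranges overlapped, and the difference between these sets was not tested. Of the matches nearest to a start, 19 of 32 lay wholly within 100 bases upstream, 6 lay downstream or across the start, and the farthest began at base -183. OAS1, without these letters in its window, ranked 15 among all genes by the size of its HPbCD rise.

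**Figure D5:**
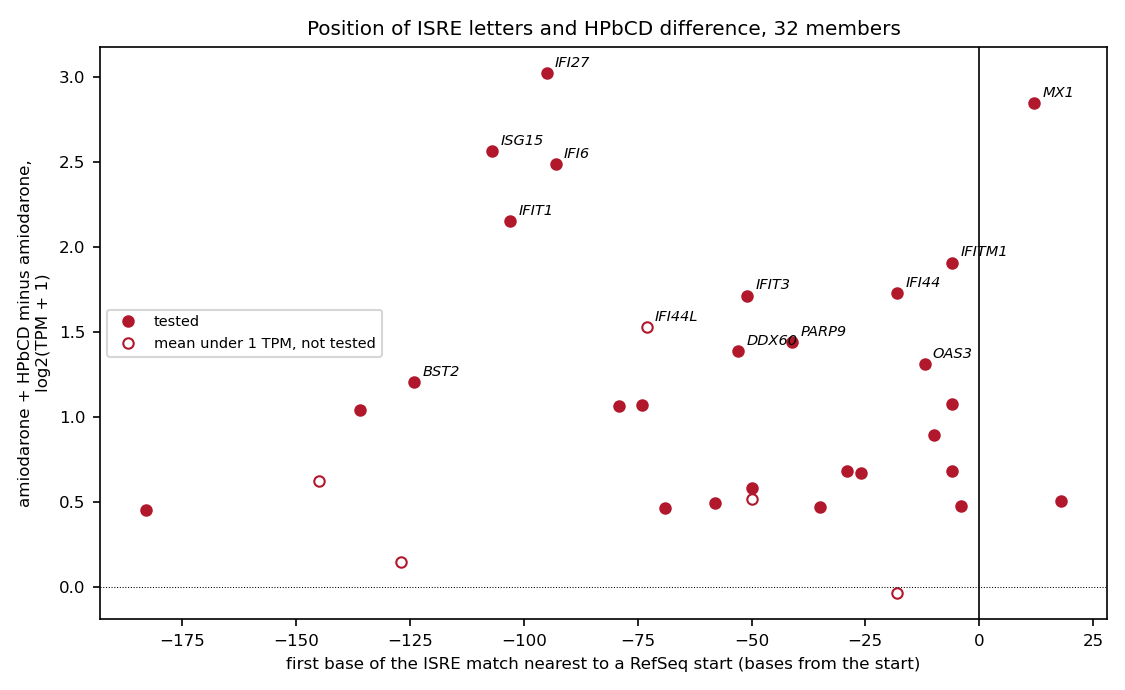
HPbCD difference on the log2(TPM + 1) scale (vertical axis) against the position of the first base of the ISRE match nearest to a RefSeq start (horizontal axis, bases from the start) for the 32 members with a match. Filled points were tested and open points had a mean under 1 TPM. Most matches lie within 100 bases upstream, and large and small differences occur at like positions.

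Genes upstream of the members were followed by lists. The 21 interferon genes of types I, II and III were not tested because none had a mean of 1 TPM. The highest value was 1.37 TPM, of IFNE, and 13 of the 21 were at 0 in all 12 libraries, which TPM cannot turn into a limit in reads. IFNB1 and the lambda interferons IFNL1, IFNL2 and IFNL3 were each at or below 0.42 TPM. The lambda interferons had their highest means with amiodarone plus HPbCD (0.28, 0.20 and 0.25 TPM), and IFNE its lowest (0.46 TPM). These values are near 0, and those of the lambda interferons overlapped the amiodarone libraries. Of the 9 receptor and kinase genes, 0 passed the limma test in the HPbCD step, against 4.07% of all genes tested, a count near that share. At an unadjusted p under 0.05, 1 was higher and 1 lower. The lambda interferon receptor chain IFNLR1 had a difference of 0.52 (limma adjusted p = 0.078, or 0.0253 with no trend) and passed as higher against LB DMSO (0.91, limma adjusted p = 0.00122). In that comparison 2 of the 9 were higher and 1 lower, where 10.1% and 7.81% of all genes were. The lower gene was TYK2 (-0.37, limma adjusted p = 0.0487). Its call was lost in several fits, such as those without LB DMSO library 1 or 2 (limma adjusted p = 0.123 and 0.154). The receptor chain IFNGR2 was higher in LB DMSO than in A549 (0.93, limma adjusted p = 1.38e-06).

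Of the 8 tested STAT and IRF factors, 5 were higher and 0 lower after HPbCD by limma, where 2.71% and 1.36% of all genes tested were. At an unadjusted p under 0.05 these counts were 6 and 0. IRF7, the factor that amplifies type I interferon transcription, was at 6.83, 5.05 and 4.35 TPM with amiodarone and at 31.4, 27.8 and 27.7 with HPbCD, a log2 difference of 2.24 (SE 0.14, limma adjusted p = 6.33e-06). The IRF7 values of A549, LB DMSO and amiodarone libraries were all at or below 7.01 TPM. IRF9 had a difference of 1.25 and STAT2 of 0.62, with limma adjusted p = 5.4e-05 and 0.00451. Under amiodarone alone 0 of these 8 passed by limma, against 8.62% of all genes tested, a count near that share. At an unadjusted p under 0.05, 2 were higher.

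Of the 9 tested sensors and adaptors, 2 were higher after HPbCD and 0 lower by limma, where 2.71% and 1.36% of all genes tested were. At an unadjusted p under 0.05 these counts were 4 and 0. Compared with LB DMSO 6 of the 9 were higher by limma, where 10.1% of all genes were. The CGAS and TBK1 calls among these were lost in some fits without 1 library. The RNA helicase DDX58 (RIG-I) went from 3.50, 3.90 and 3.39 to 13.6, 11.95 and 10.3 TPM, a difference of 1.49 (SE 0.12, limma adjusted p = 2.16e-05). The RNA helicase IFIH1 (MDA5) went from 1.5, 1.8 and 0.90 to 5.51, 5.28 and 4.21 TPM, a difference of 1.33 (limma adjusted p = 0.000881). Both had also passed as higher under amiodarone alone, at 0.53 and 0.60 by limma, but DDX58 was lost without LB DMSO library 2 or amiodarone library 2 (limma adjusted p = 0.0515 and 0.0645), and IFIH1 in 10 of the 12 fits without 1 library (all but those without A549 library 2 and amiodarone library 3; limma adjusted p 0.052 to 0.154). Of the 5 tested inhibitors of the pathway, 0 passed by limma in the HPbCD step, against 4.07% of all genes tested, a count near that share. At an unadjusted p under 0.05, 1 was higher, and SOCS3 differed by 0.08 (limma adjusted p = 0.667).

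Cell type markers were read beside these results, since in a bulk sample more cells of a type and more RNA per cell cannot be told apart. The 11 leukocyte markers summed to 7.36 to 7.54 TPM in A549, 3.30 to 5.40 in LB DMSO, 2.10 to 3.47 with amiodarone and 1.93 to 2.88 with amiodarone plus HPbCD. CD3E, MS4A1 and CLEC4C were at 0 in all 12 libraries, and only CD14 and ITGAM were above 1 TPM. The 7 epithelial line markers, led by KRT7, KRT8 and KRT18, summed to 9620 to 10300 TPM in A549 and 4160 to 5230 in the LB groups. The 7 alveolar type II markers summed to 18.9 to 20.5 TPM in A549 and 1160 to 1580 in the LB groups, where SFTPB, SFTPC and SFTPD were present while SFTPA1 and SFTPA2 were at most 0.03 TPM. The 8 fibroblast markers summed to 9.22 to 10.2 TPM with HPbCD and 11.9 to 20.7 in the other groups, and the 6 endothelial markers to at most 0.89. The leukocyte sums with HPbCD thus lay within or below those of the other groups, and the part of other cell types in the results was not tested.

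Depth is unknown, since TPM does not hold it, and values carry no counting interval. TPM sums were 999449 to 999632 per library. Correlations of log2(TPM + 1) between libraries over the genes tested were 0.985 to 0.989 within groups and 0.943 to 0.986 between groups.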

How the data were processed

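Expression of 57152 genes was measured in 12 libraries of human cell lines, in 4 groups of 3. The deposited values are TPM, made by the authors. The submitters' processing notes name STAR 2.7.3a, RSEM 1.3.1 and GRCh38, with no role or order, and the annotation release was not given in the sources used here. Reads that fit several genes cannot be split exactly, so near-identical genes are uncertain. Per the labels' protocols, the libraries were stranded mRNA, and the study read pairs of 100 bases. Being relative, TPM allows no count model. Of the rows, 37 held no value, and 0 columns lacked a sample.

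Analysis was on the log2(TPM + 1) scale, a pseudocount of 1, which understates changes of low genes. The 13968 genes whose mean over the 12 libraries reached 1 TPM were fitted with limma 3.58.1 (R 4.3.3) in 1 model of all 4 groups (8 residual degrees of freedom) with a mean-variance trend. The median residual SD was 0.128. The two-sided p was adjusted by Benjamini-Hochberg within each comparison over these genes, at a threshold of 0.05. The fit was tested on simulated data.

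Members, lists and tests were chosen with earlier results of these data known, so counts are descriptions and no set was tested. Any member could be named. Values in every library were given mainly for members past the test that reached 5 TPM in the mean of the higher group, and for relatives of these. At most 4 genes were named per pathway list, apart from the interferons. CGAS stood under an older symbol in the gene list, and under CGAS in the expression table. Promoter windows came from RefSeq (GRCh38.p14), and exons and shared 100-base windows from GENCODE 29. The alternatives tried were a pseudocount of 0.1 or 5, a filter at 5 TPM or none, median-of-ratios scaling, quantile normalization, no trend, only the groups compared, a replicate block and leaving out each library. Tables and figures were made with Python 3.11.15.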

Additional observations from a re-analysis of the deposited data

How the results depend on the processing

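None of the member results past the test reversed in any of the alternatives run. The median difference of the tested members between LB DMSO and A549 DMSO was 0.0336 with a filter at 5 TPM (0.132 as reported). For the HPbCD step it was 0.669 with a pseudocount of 5, 0.847 with no filter and 0.893 with a filter at 5 TPM (1.04 as reported), and for amiodarone plus HPbCD against LB DMSO it was 0.722 with a pseudocount of 5 (1.17 as reported). A larger pseudocount shrinks differences of low genes by construction. Fits of only the groups compared gave 1 member lower, IFITM2, under amiodarone and under amiodarone plus HPbCD against LB DMSO (0 as reported in both), where the cause was not tested. Without both libraries numbered 1 of the amiodarone and the amiodarone plus HPbCD groups, a setting chosen after seeing the data, 24 members were higher in the HPbCD step (37 as reported), with fewer libraries in the fit. Leaving out 1 library at a time gave 13 to 15 members higher, 5 to 7 lower and a median of 0.0844 to 0.146 in the line comparison. It gave 5 to 9, 0 to 1 and 0.136 to 0.214 for amiodarone, 33 to 39, 0 to 0 and 0.952 to 1.06 for the HPbCD step, and 36 to 40, 0 to 1 and 1.08 to 1.29 for amiodarone plus HPbCD against LB DMSO. Of the calls, 18 of 22, 5 of 8, 33 of 37 and 36 of 38 were kept in every such fit. With no filter, ISG20, UBE2L6, HERC6 and IFITM3 were lost in the HPbCD step (limma adjusted p 0.0733 to 0.104). In the line comparison UBE2L6, HERC5 and PARP12 were lost with no filter (limma adjusted p 0.0687 to 0.0875). ISG15 and PARP14 were so lost under amiodarone, and TRIM22 for amiodarone plus HPbCD against LB DMSO (limma adjusted p = 0.0804). The sign changed 47 times for differences that passed in neither setting, the largest of which was 0.223 in size.

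Nothing in the labels says whether the replicate numbers pair the libraries. Same-numbered libraries of compared groups had correlations of their deviations between -0.0273 and 0.212, and unlike-numbered ones between -0.128 and 0.0653. In each LB group the summed TPM of the members fell from library 1 to library 3. Whether same-numbered libraries share a factor was not tested. With the replicate number as a block, 36 members were higher in the HPbCD step (37 without the block), HERC6 missing the threshold at a limma adjusted p of 0.0504. The block gave 15 higher and 8 lower in the line comparison, 8 higher under amiodarone and 38 higher for amiodarone plus HPbCD against LB DMSO. The scalings moved the median of all genes by less than 0.1, and TPM gives no depth from which a detection limit could be had.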
